A study of Mus musculus with 9 samples.

Results

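Dextran sulfate sodium (DSS), a sulfated sugar polymer that damages the lining of the bowel when mice drink it, was given from day 18, and the intestinal tract of a DSS group on normal diet at day 33 (RR) was set against that of a control group on normal feed without DSS at day 34 (C). These are 2 of the 9 libraries of the study, each condition having 1 library. The other 7 come from DSS groups: normal diet at day 28 (R), methionine-deficient diet (1K), tryptophan- and niacin-deficient diet (2K) or a diet lacking all of these (3K) at day 28, and the same diets replaced by normal diet from day 28 to day 33 (1KR, 2KR, 3KR). With 1 library a side, no difference below has a replicate check, no test was made, and each value describes these libraries. DSS and day of collection also differ together between RR and C. Strain, sex, age, segment of gut, hour of collection, pooling of animals and whether DSS was withdrawn before day 33 are not stated in the sources used here.

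Expression is given as FPKM, the number of sequenced fragments scaled to transcript length and library size, so that levels of different genes can be compared per length. Of 55468 genes in the table, 18018 had at least 1 FPKM in RR or C and are called measured. Differences are of log2(FPKM + 0.5), RR minus C, a scale that understates the change of low genes. At least 2-fold higher in RR were 1209 genes (6.71%) and at least 2-fold lower 1047 (5.81%), together 12.5% of those measured. The median difference was -0.02, with quartiles at -0.37 and 0.33. These shares are the background against which each gene list is read. In R against C, which shares the control library, 4.43% of 18222 genes were higher by at least 2-fold and 3.22% lower, together 7.65%. Just inside the 2-fold limit, with a difference of 1 to 1.1 either way, lay 363 genes, and 436 lay just outside it, at 0.9 to 1. The estimated depth was 27.6 M fragments in RR and 25.6 M in C, within the range of 13.7 to 30.5 M over all 9 libraries. C had 32115 genes above 0 FPKM against 28883 in RR, and the DSS libraries ran from 27845 to 29718. The bearing of this on low genes was not tested. At these depths 1 FPKM of a 2 kb transcript stands for 55.2 fragments in RR and 51.2 in C. Rescaling both libraries to the same protein-coding sum lowers the overall median from -0.02 to -0.26. Genes near the 1 FPKM floor move less, because of the constant added to each value. On that scale 35.5% of the genes at least 2-fold apart were higher in RR, against 53.6% as deposited.

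The small intestine changes in function along its length. Its proximal part, marked by the transcription factor GATA4, digests and absorbs most sugar, fat, iron and folate, and the ileum recovers bile acids and cobalamin. In the ileal enterocyte, bile acids enter through SLC10A2, are bound by FABP6 and leave through SLC51A and SLC51B. Their receptor FXR (gene Nr1h4) switches on Fabp6, Nr0b2 and the hormone gene Fgf15, which restrains bile acid synthesis in the liver. DSS is best known for its damage to the colon, where it causes ulceration, infiltration by immune cells and later regrowth of the epithelium.

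The genes of ileal bile acid handling were far lower in RR than in C. Fabp6 (ENSMUSG00000020405, GRCm38 chr11:43596049-43601540, minus strand) stood at 2.9 FPKM in RR against 3486 in C, 1204 times lower and a log2 difference of -10.00, the largest of any gene named here. It was at 1946 FPKM in R, and the 8 DSS libraries ran from 0.282 to 1946 with a median of 172, all under C. The 250 bases before its start (RefSeq, GRCm38.p6, chr11:43601563-43601812, minus strand) are shown because the gene is the extreme of the comparison. Capitals mark an inverted repeat around 1 central base, an arrangement that FXR is known to bind.

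Fabp6: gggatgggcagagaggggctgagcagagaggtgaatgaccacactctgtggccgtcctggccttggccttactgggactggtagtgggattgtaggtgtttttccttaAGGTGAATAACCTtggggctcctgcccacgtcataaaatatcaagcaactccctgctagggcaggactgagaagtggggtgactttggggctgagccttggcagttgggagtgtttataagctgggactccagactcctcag

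The repeat lies 142 to 130 bases before the start. It is the nearer to the start of the 2 pairs of hexamers here that match in 5 of 6 bases as an inverted repeat with 1 base between them; the other lies 212 to 200 bases before it. Its letters, AGGTNANTNACCT, were thus spelled from this promoter itself, and on either strand the pattern occurs before 6 of the 27025 genes with a RefSeq promoter entry (0.0222%). Of the 8 genes of the list, 6 had an entry, and only Fabp6 held the pattern. A match is a description of letters and shows no binding.

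The other members of this list were lower too, with 1 exception. Slc10a2, the bile acid uptake carrier, was at 1.58 FPKM in RR against 43.1 in C, with 50.9 in R. Fgf15 was at 1.79 in RR, 90.4 in C and 34.5 in R. Nr0b2, which encodes the repressor SHP, was at 0.931 in RR and 7.12 in C. The export subunits were less far apart. Slc51a was at 129 in RR and 294 in C (difference -1.18), and Slc51b at 48.9 and 89.7 (-0.87). Nr1h4, the receptor itself, was at 18.8 against 34.4 FPKM. Only Abcc3, a basolateral bile acid exporter, was slightly higher, at 22.9 against 19.5. Of the 8 measured members 5 were at least 2-fold lower and 0 higher, with a list median of -1.80; in R against the same control library the median was -0.38.

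Genes of the proximal small intestine differed the other way. Gata4 was at 70.9 FPKM in RR, the highest of the 9 libraries, 23.2 in R and 14.2 in C. Onecut2, a transcription factor of the duodenum, was at 5.59 in RR and 0.31 in C. Fabp1 (ENSMUSG00000054422, GRCm38 chr6:71199827-71205023, plus strand), the fatty acid binding protein of the proximal enterocyte, was at 1525 FPKM in RR, 113 in R and 55.1 in C, 27.7 times higher in RR. Its 8 DSS libraries ran from 113 to 2941 FPKM (median 1314), all above C. The lactase gene Lct was at 472 against 130.0, also the highest of the 9. Of 13 measured members, 11 lay above C, 9 of them by at least 2-fold, and 2 lay below. The iron exporter Slc40a1, at 4.27 against 13.7 FPKM, was the 1 at least 2-fold lower. Cybrd1 was at 1.62 against 1.93, and Ada was near level at 191 against 177. The list median was 1.85 in RR against C and 0.25 in R against C.

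Other positional genes set RR and C apart as well. Of 17 measured Hox genes, transcription factors that mark position along the body axis, 9 were at least 2-fold lower and 0 higher (median -1.01, or -0.22 with no filter on low values). Hoxb9 was at 0.031 FPKM in RR, 0.856 in R and 4.48 in C. Hoxb6 was at 1.25, 2.13 and 7.07 in the same order. The distal gut hormones Pyy and Gcg were at 17.4 and 19.9 FPKM in RR against 50.8 and 51.4 in C. Cubn and Amn, which form the cobalamin receptor of the ileum, were closer, at 182 against 219 and 49.4 against 33.2.

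Colon markers were low in both libraries. Car1, a carbonic anhydrase of the colon epithelium, was listed at 0 in RR and C and at 1151 FPKM in 3KR. Only 3 of 9 colon and caecum genes were measured, 2 of them at least 2-fold higher in RR and 1 lower. The whole list summed to 9.07 FPKM in RR and 11.8 in C, against 1201 in 3KR. Epithelial markers as a whole were level, with 0 of 11 at least 2-fold apart and a median of -0.07. Epcam was at 529.8 against 728 FPKM and Krt8 at 609.7 against 693. Segment of gut sampled and DSS cannot be told apart as sources of these differences, because the labels name only the intestinal tract.

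**Figure D1:**
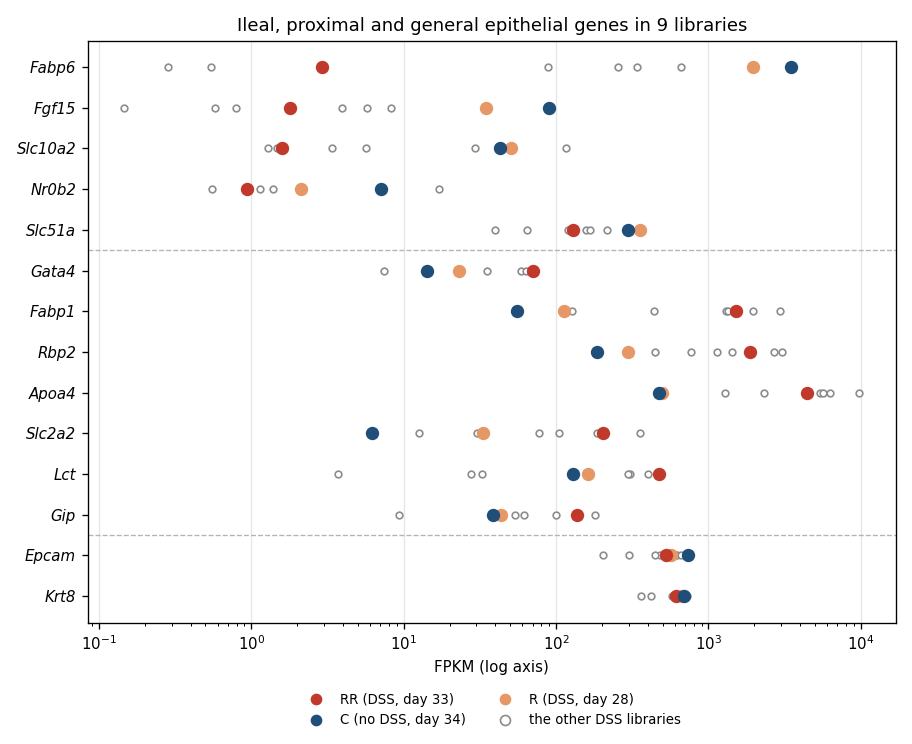
FPKM on a log axis of ileal bile acid genes (top), proximal genes (middle) and general epithelial genes (bottom) in the 9 libraries, 1 point a library. Fabp6 is at 2.9 in RR and 3486 in C, Fabp1 at 1525 and 55.1, and Epcam and Krt8 lie close together in RR, R and C.

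Genes of sugar digestion and uptake were higher in RR throughout. All 14 were above C and 12 were at least 2-fold higher, with a median of 1.78 against 0.33 in R. Slc2a2 (ENSMUSG00000027690, GRCm38 chr3:28697903-28731359, plus strand), the glucose and fructose exporter GLUT2, was at 203 FPKM in RR, 32.9 in R and 6.17 in C, the lowest of the 9. The fructose carrier Slc2a5 was at 138, 45.2 and 13.5 in that order. Slc5a1, the sodium-coupled glucose carrier SGLT1, was at 594, 432 and 116. For these carriers C was below each of the 8 DSS libraries. Sucrase-isomaltase (Sis) was at 1098 FPKM against 345, and trehalase (Treh) at 197 against 32. Inside the cell, Pck1, an enzyme of gluconeogenesis, was at 390.0 against 83.2.

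Fat absorption followed the same direction. The 21 genes of fat and sterol absorption were all above C, from a difference of 0.16 to 4.78, and 12 were at least 2-fold higher, or 7 with equal protein-coding sums. Their median was 1.14, against 0.14 in R. Apoa4, an apolipoprotein of chylomicrons, was at 4439 FPKM in RR, 498 in R and 474 in C. Apoc2, the activator of lipoprotein lipase, was at 1820.2, 211 and 134, and its inhibitor Apoc3 at 1586, 176 and 210.4. The loading protein Mttp and the last enzyme of triglyceride synthesis Dgat2 were at 621 and 259 FPKM in RR against 182 and 69.97 in C. Fabp2, which is made along most of the small intestine, differed less, at 3121 against 2389.

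Of 26 genes of PPAR signalling and fatty acid oxidation, 11 were higher by at least 2-fold (7 with equal protein-coding sums) and 0 lower, with a median of 0.87. Cyp4a10, a fatty acid hydroxylase, differed most of these, at 13.1 FPKM in RR against 0.579 in C. Pex11a, which drives peroxisome division, was at 35.4 against 10.9, and the thiolase Acaa1b at 33.3 against 9.91. The mitochondrial gatekeeper Cpt1a was level, at 51.1 against 51.8 (difference -0.02). Ppara itself was at 36.5 in RR, 37.1 in R and 17.9 in C.

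Protein digestion was mixed. Among 13 brush border peptidases 4 were higher by at least 2-fold and 2 lower. Angiotensin-converting enzyme (Ace) was at 1049.8 FPKM in RR, the highest of the 9 libraries, 372 in R and 146 in C. Neprilysin (Mme) was at 307 against 49.6, and enteropeptidase (Tmprss15), the duodenal activator of trypsinogen, at 3.65 against 0.03. Lower in RR were meprin alpha (Mep1a), at 99.3 against 396, and Naaladl1, at 434 against 1148. Of 14 carriers of amino acids and peptides 7 were higher by at least 2-fold and 2 lower (median 1.07). Slc36a1, a proton-coupled amino acid carrier, was at 90.5 against 11.1 FPKM, and the peptide carrier Slc15a1 at 468 against 207. Slc1a1, a glutamate carrier, was lower, at 14.5 against 34.7. The part of gut position in these nutrient genes was not tested: the proximal list, with which the fat and sugar lists share Fabp1, Apoa4, Slc2a2 and Lct, was higher by a median of 1.85 in the same libraries.

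**Figure D2:**
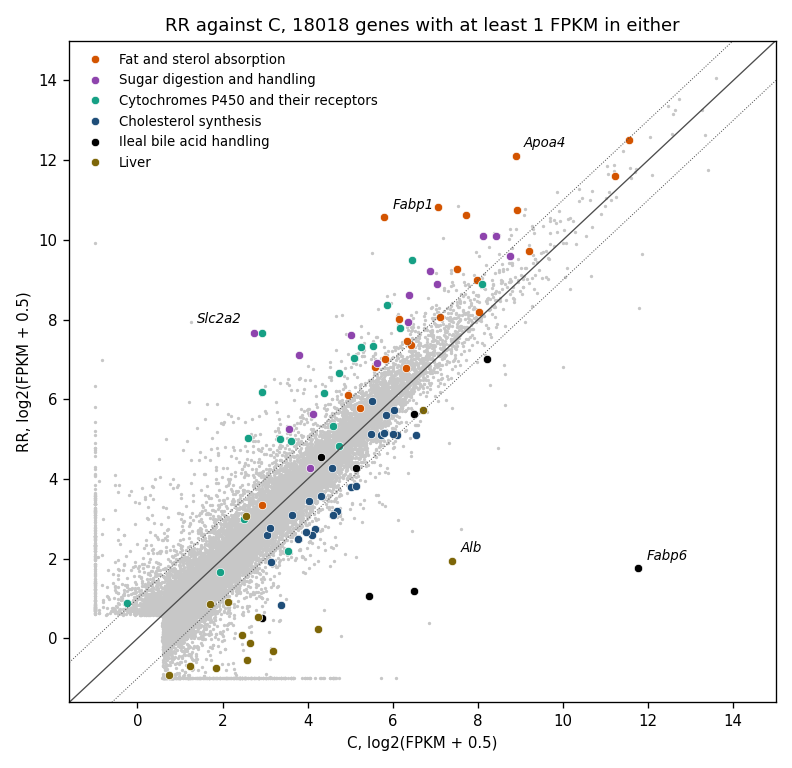
Each grey point is 1 of the 18018 measured genes, with C on the horizontal and RR on the vertical axis, both as log2(FPKM + 0.5). The solid line marks equal values and the dotted lines a 2-fold difference. All 14 sugar genes and all 21 fat absorption genes lie above the solid line, and 24 of 25 cholesterol synthesis genes lie below it.

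Enzymes that metabolise drugs and other foreign compounds were among the most different genes. Of 20 cytochromes P450 and their regulators, 14 were higher by at least 2-fold and 1 lower, with a median of 1.72 against 0.10 in R. Cyp2b10, a classical target of the receptor CAR, was at 202 FPKM in RR, 20.4 in R and 7.09 in C, and CAR itself (Nr1i3) at 32.4, 4.52 and 5.6. Cyp3a11, a target of the receptor PXR, was at 722, 54.3 and 86.9, and PXR (Nr1i2) at 39.8, 25.3 and 23.6. RR had the highest value of all 9 libraries for Cyp2b10, Cyp3a11, Cyp3a25, Cyp2c65 and Cyp2c66. These enzymes are named because RR was their maximum, which did not hold for the whole list. Cyp2j6 was at 131 FPKM in RR and 188 in 1KR, and Cyp3a13 at 159 and 199. The list summed to 2821 FPKM in RR, the highest of the 9 libraries, 2584 in 1K and 2483 in 1KR. Libraries on deficient diets differ from RR in diet too.

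Conjugating enzymes and export pumps showed the same picture, with 18 of 24 at least 2-fold higher, 0 lower and a median of 1.44. The glutathione transferase Gstm3 was at 83.8 FPKM in RR, 8.92 in R and 10.9 in C, and Gstm1 at 577, 166 and 165. The epoxide hydrolase Ephx2 was at 227 against 37.4. The bilirubin-conjugating Ugt1a1 was at 176 against 52.7, and the export pump Abcc2 at 145 against 39. Gsta1 was listed at 0 in C and at 6.33 in RR. Members of the Cyp2c, Cyp3a, Gsta, Gstm and Ugt1a families are near copies or share exons, so their separate values are uncertain. Proximal genes were higher in the same library, and their part in this difference was not tested.

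Vitamin A and mineral genes were uneven. Of 11 vitamin A genes 5 were higher by at least 2-fold and 0 lower. The retinol binding protein Rbp2 was at 1859.7 FPKM in RR against 186 in C. The alcohol dehydrogenase Adh1 was at 817, 46.9 and 45.1 in RR, R and C, and Aldh1a1, which makes retinoic acid, at 280.0, 73.4 and 69.5. Among 16 genes of iron, calcium and vitamin uptake 3 were higher and 3 lower. The folate carrier Slc46a1 was at 90.00 against 8.71, and the ascorbate carrier Slc23a1 at 42.4 against 4.27. The biotin and pantothenate carrier Slc5a6 was at 13.5 against 31, and the metallothionein Mt2 at 11.5 against 26.2. The phosphate carrier Slc34a2, one of the 20 most lowered genes, was at 26.8 against 357 FPKM and at 158 in R. The magnesium channel Trpm6 was at 0.864 against 9.49. Of 24 ion and water transport genes 11 were higher and 2 lower, with the water and glycerol channel Aqp3 at 32.7 against 6.1. The carbonic anhydrase Car12 was among the lower ones, at 4.19 against 20.8. Claudin 2 (Cldn2), a leaky-pore claudin of crypts, was at 10.6 in RR, 31.1 in R and 39.4 in C, and 2 of 12 tight junction genes were at least 2-fold lower with 0 higher.

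Many genes of sterol synthesis were lower in RR. Of 25 genes of cholesterol synthesis and uptake 24 were below C, 12 of them at least 2-fold, and 0 were at least 2-fold higher. Their median was -0.87, against -0.34 in R. Hmgcs1 (ENSMUSG00000093930, GRCm38 chr13:119690379-119708260, plus strand), the synthase at the head of the mevalonate pathway, was at 33.9 FPKM in RR, 63.2 in R and 92.5 in C. The 8 DSS libraries ran from 19.5 to 109 with a median of 36.6, so C lies inside their range. Idi1, which makes the isoprene unit, was at 5.55, 14.2 and 16.8 in RR, R and C. Sqle, which oxidises squalene, was at 8.01, 19.3 and 23.7.

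These genes are switched on together by SREBP2, which binds DNA with the help of the CCAAT-binding factor NF-Y. The promoters of 2 of them are shown as members of a list that differed in 1 direction (RefSeq, GRCm38.p6, 250 bases before the start, plus strand; Hmgcs1 chr13:119690101-119690350, Idi1 chr13:8885356-8885605). Capitals mark CCAAT or its reverse complement ATTGG and, in Hmgcs1, the sterol element letters TCACCCCAC.

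Hmgcs1: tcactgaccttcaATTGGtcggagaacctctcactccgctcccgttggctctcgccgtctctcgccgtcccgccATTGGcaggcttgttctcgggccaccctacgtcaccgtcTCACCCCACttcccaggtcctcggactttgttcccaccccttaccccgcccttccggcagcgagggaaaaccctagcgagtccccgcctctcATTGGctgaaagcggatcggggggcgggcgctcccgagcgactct
Idi1: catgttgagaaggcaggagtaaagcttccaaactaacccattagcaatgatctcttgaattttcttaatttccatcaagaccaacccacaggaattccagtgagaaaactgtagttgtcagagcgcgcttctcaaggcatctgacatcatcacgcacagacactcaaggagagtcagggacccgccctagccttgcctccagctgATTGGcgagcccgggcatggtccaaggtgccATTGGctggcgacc

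In Hmgcs1 the letters CCAAT occur 237 to 233, 176 to 172 and 45 to 41 bases before the start, and TCACCCCAC 137 to 129 bases before it, without overlap. In Idi1 CCAAT occurs 45 to 41 and 14 to 10 bases before the start. Searched on both strands, CCAAT was in 16 of the 17 cholesterol genes with a promoter entry (94.1%), in 11 of 17 clock genes (64.7%), in 7 of 11 fatty acid synthesis genes (63.6%), in 7 of 16 fat absorption genes (43.8%) and in 37.5% of all 27025 genes. TCACCCCAC was in 0.555% of all genes and, among the cholesterol genes, in Hmgcs1 alone. These are counts of letters and show no binding.

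Fewer genes of fatty acid synthesis were apart, with 5 of 14 at least 2-fold lower, 0 higher and a median of -0.70, against -0.61 in R. Fatty acid synthase (Fasn) was at 61.6 FPKM in RR, 58.5 in R and 133 in C. The desaturase Scd1 was at 117, 146 and 389, and Scd2 at 9.43, 25 and 55.5. C had the highest value of the 9 libraries for Fasn, Scd1, Acly and Acaca. The regulator Srebf1 went the other way, at 87.1 against 55.6. Adipocyte markers also differed between RR and C: 8 of 10 were below C, 2 of them by at least 2-fold, and 1 was at least 2-fold higher. Their median was -0.83. Their summed level was 342 FPKM in RR and 385 in C, and Adipoq was at 17.1 against 35.4. Fat cells also express Fasn and Scd1, and their part in these values was not tested.

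**Figure D3:**
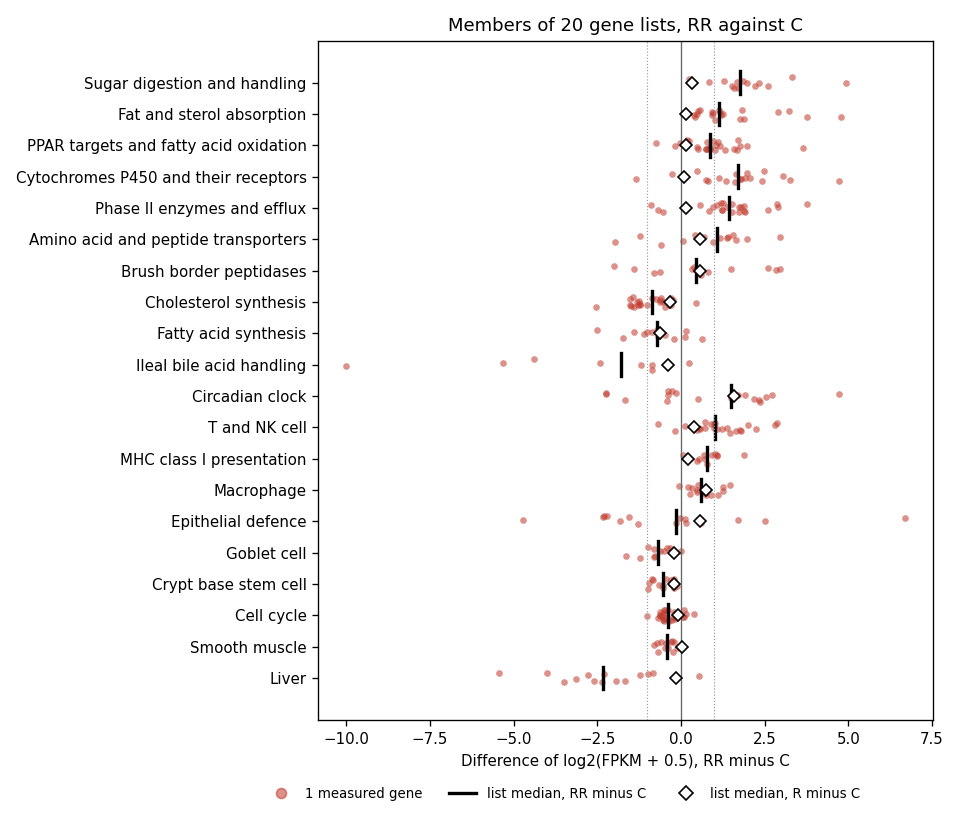
Each red point is the RR minus C difference of 1 measured gene, on the log2(FPKM + 0.5) scale, for 20 gene lists; black bars are list medians and open diamonds the medians of R minus C, which share C. The sugar list sits at 1.78 in RR and 0.33 in R, the liver list at -2.33 and -0.16, and the clock list at 1.49 and 1.58.

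Clock genes set C apart from every DSS library. In the circadian clock, ARNTL with CLOCK drives the Per, Cry, Nr1d1 and Dbp genes, whose products feed back on it, so that Arntl and Dbp peak at opposite times of day. Dbp was at 61.1 FPKM in RR, 46.9 in R and 1.81 in C, and the 8 DSS libraries ran from 11.3 to 99 (median 54). Arntl was at 4.44 in RR, 3.53 in R and 23 in C, against 1.84 to 11.5 over the DSS libraries (median 4.52). C was thus below all 8 for Dbp and above all 8 for Arntl. It was also the lowest of the 9 for Nr1d1, Nr1d2, Per1, Per3, Tef and Hlf. Nr1d1, a repressor of Arntl, was at 88.6 FPKM in RR against 14.9 in C. Nfil3, which opposes DBP, was at 1.64 against 9.62. In all, 10 of 19 measured clock genes were higher by at least 2-fold and 3 lower. The list median was 1.49, and 1.58 for R against the same C. Hour of collection and DSS cannot be told apart here, since the only library without DSS is C.

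Per3 and Tef are shown for 2 of the elements that the clock reads: the E-box CACGTG, bound by CLOCK and ARNTL, and the D-box TTATGTAA, bound by DBP, TEF, HLF and NFIL3. Per3 was at 8.39 FPKM in RR, 11.7 in R and 1.44 in C, and Tef at 92.8, 84.4 and 13.7. The promoters are from RefSeq, GRCm38.p6 (Per3 chr4:151044666-151044915, minus strand; Tef chr15:81811164-81811413, plus strand, 1 of its 2 entries), with the elements in capitals.

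Per3: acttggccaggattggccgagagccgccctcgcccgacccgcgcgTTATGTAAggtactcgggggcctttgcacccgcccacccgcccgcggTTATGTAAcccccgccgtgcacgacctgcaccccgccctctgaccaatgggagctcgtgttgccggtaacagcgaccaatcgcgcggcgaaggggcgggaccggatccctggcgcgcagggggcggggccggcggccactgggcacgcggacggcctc
Tef: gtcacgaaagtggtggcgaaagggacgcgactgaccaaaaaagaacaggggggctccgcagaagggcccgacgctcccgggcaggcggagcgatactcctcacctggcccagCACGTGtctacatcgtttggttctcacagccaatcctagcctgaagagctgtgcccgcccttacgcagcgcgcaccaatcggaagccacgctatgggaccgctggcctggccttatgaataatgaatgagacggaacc

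The D-box occurs 205 to 198 and 158 to 151 bases before the start of Per3, and the E-box 138 to 133 bases before this start of Tef. On either strand the D-box was in 1 of 17 clock genes with an entry and in 0.977% of all genes, and the E-box in 5 of 17 (29.4%) and in 6.86%. The E-box was as frequent in some other lists, with 2 of 6 ileal bile acid genes (33.3%), 4 of 17 cholesterol genes (23.5%) and 3 of 13 sugar genes (23.1%). These too are counts of letters.

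**Figure D4:**
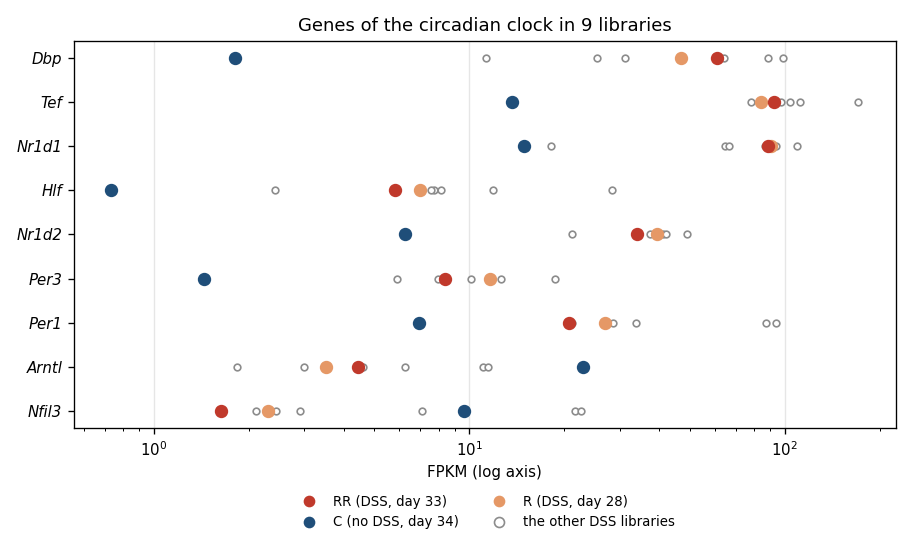
FPKM on a log axis of 9 clock genes in the 9 libraries, 1 point a library. C lies left of all DSS libraries for Dbp, Tef, Nr1d1, Hlf, Nr1d2, Per3 and Per1 and right of all of them for Arntl.

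Genes that respond to glucocorticoids, hormones that also peak once a day, were partly higher: 6 of 13 at least 2-fold, with 1 lower. The kinase gene Sgk1 was at 424 FPKM in RR, 415 in R and 148 in C. Fkbp5, which tunes the glucocorticoid receptor, was at 10.9, 29.9 and 4.24. C was the lowest of the 9 libraries for both. The immediate early gene Fos was at 118 against 34.8, and 1 of 12 such genes was at least 2-fold higher.

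Some macrophage genes were higher in RR, among them members of a lipid-handling, damage-associated state. Of 14 macrophage genes 4 were higher by at least 2-fold and 0 lower, with a median of 0.60 and a summed level of 387 FPKM in RR and 196 in C. In bulk tissue, more cells of a type and more RNA per cell cannot be told apart. The lysozyme Lyz2 was at 159 FPKM in RR, 259.9 in R and 66.5 in C. Gpnmb (ENSMUSG00000029816, GRCm38 chr6:49036546-49070929, plus strand), a lysosomal glycoprotein of lipid-laden macrophages, was at 14, 17.7 and 0.198, 70.7 times higher in RR than in C, and its 8 DSS libraries ran from 0.426 to 17.7 (median 10.1). The elastase Mmp12 was at 11.1, 14 and 0.624, and the lipid receptor Trem2 at 3.31, 4.21 and 0.194. For these 3 genes R and RR were both far above C, with R the higher. Other members of the damage-associated list did not share this. Cd9, a tetraspanin, was at 29.9 FPKM in RR against 47.9 in C, and the arginase gene Arg1 at 2.44 against 4.17. Of the 9 measured members 4 were at least 2-fold higher, 0 were at least 2-fold lower and 2 lay below C, with a median of 0.78 in RR and 2.11 in R; over the members with at least 5 FPKM in RR or C, which are fewer, the RR median was 2.07.

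Neutrophil genes were low. Only 5 of 14 were measured, 2 of them at least 2-fold higher, and the list median was 0.14, which becomes -0.03 when protein-coding sums are made equal and 1.67 with a floor of 5 FPKM. S100a8, a subunit of the neutrophil protein calprotectin, was at 1.54 FPKM in RR, 5.57 in R and 0.121 in C, against 1273 in 3KR. Some inflammatory cytokine genes had low values in RR, which does not mean lower than in C: Il6 was at 0.015 FPKM, Tnf at 1.03 and Il1b at 2.88. Higher in RR were Il18 and Il33, cytokines of epithelium and stroma. Il18 was at 51.7 in RR, 19.6 in R and 7.5 in C, and Il33 at 17.1, 8.7 and 2.45. The cytokine signalling inhibitor Socs3 was at 26, 22.7 and 4.79. C was the lowest of the 9 libraries for each of these 3. Of 9 measured cytokine genes 4 were higher by at least 2-fold and 0 lower, and of 20 chemokine genes 5 and 0.

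Many T cell and cytotoxic genes were higher. Of 23 measured T and NK cell genes 12 were higher by at least 2-fold (7 among those with at least 5 FPKM in either library, which are fewer) and 0 lower (median 1.03, against 0.40 in R). Their summed level was 157 FPKM in RR, 72.2 in R and 48.4 in C. The granzymes, proteases by which lymphocytes kill target cells, led the list: Gzma was at 44.8, 12.6 and 5.92 FPKM in RR, R and C. Gzmb was at 13.4, 3.12 and 1.4. The receptor chain Cd3e was at 12.8, 4.81 and 2.33, and the coreceptor Cd8a at 6.11, 1.73 and 1.13. The chemokine Ccl5, which such cells secrete, was at 34.4, 14.4 and 6.88. Intraepithelial lymphocytes are denser in the proximal than in the distal small intestine, and the part of gut position in these values was not tested.

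Several antibody genes were higher while most B cell genes were not. Of 15 plasma cell genes 7 were higher by at least 2-fold and 0 lower. Igha, the heavy chain of IgA, was at 1109.6 FPKM in RR, 882 in R and 363 in C, and Jchain, which joins IgA, at 223, 202 and 80.2. Ighm was at 128, 178 and 35 and was the 1 of 12 B cell genes at least 2-fold higher. The B cell factor Pax5 was at 1.55, 5.43 and 3.24.

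Genes of antigen presentation on MHC class I all lay above C as deposited, with differences of the 11 from 0.08 to 1.90, 4 of them at least 2-fold, or 1 with equal protein-coding sums. The immunoproteasome subunit Psmb8 was at 98.2 FPKM in RR, 35.5 in R and 26 in C. The peptide pump gene Tap2 was at 34.4, 19 and 16.1. MHC class II genes had a median of 0.46 and 0 of 10 at least 2-fold apart, with Cd74 at 351 against 252. Type I interferon genes differed little, with 1 of 25 higher by at least 2-fold and 1 lower. As deposited 22 of them lay above C, with a median of 0.36, against -0.21 in R. Of 14 interferon gamma GTPase genes and their companions 2 were at least 2-fold higher, with Igtp at 10.7 against 3.56.

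Epithelial defence genes were split, with 3 of 15 higher by at least 2-fold and 7 lower. The C-type lectin Reg3b was at 806 FPKM in RR, 6069.8 in R and 3696 in C, and Reg3g at 549, 2969.9 and 1626; RR was the lowest of the 9 libraries for both. The oxidase Duox2, which makes hydrogen peroxide, was at 3.32, 30.3 and 18.6, also lowest in RR. Inducible nitric oxide synthase (Nos2) was at 3.13, 95.2 and 17.2, so that R lay above C and RR below it. Saa1, an acute phase protein made by ileum and liver, was at 0.552, 23.2 and 27.1. Reg1 (ENSMUSG00000059654, GRCm38 chr6:78422711-78428667, plus strand), made by pancreas and proximal gut, was at 244, 3.19 and 1.88, 129.9 times higher in RR than in C. The macrophage and stromal gene Saa3 was at 16.8, 30.6 and 2.51. Lcn2, a common marker of gut inflammation, was at 1.69 FPKM in RR against 1.47 in C, against 9.72 in R.

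**Figure D5:**
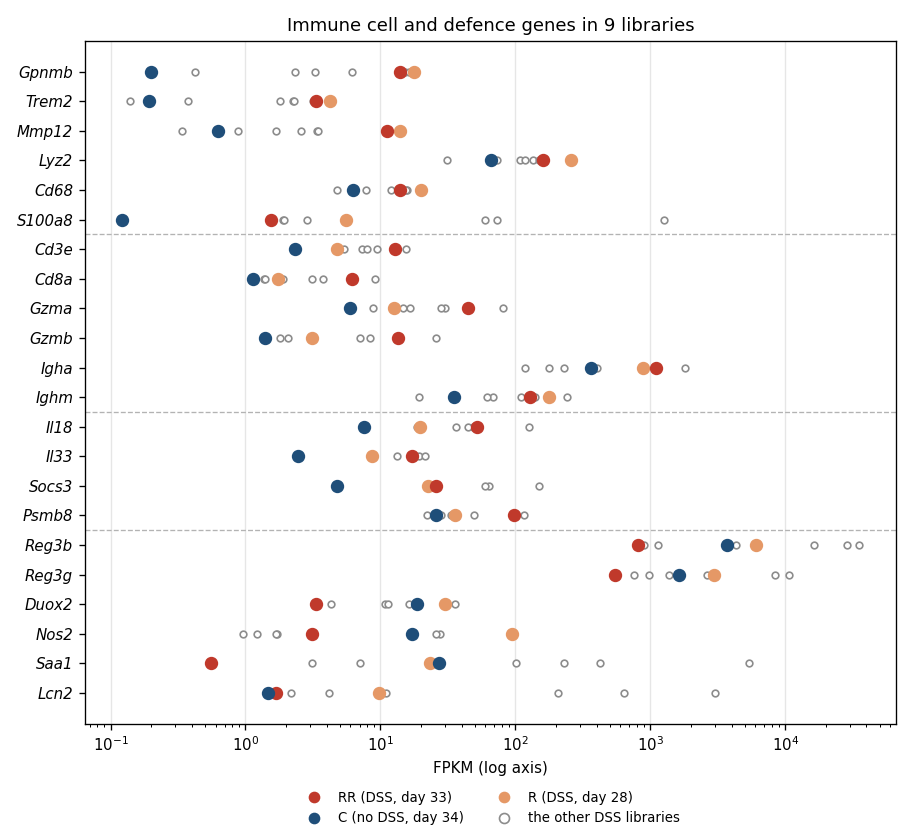
FPKM on a log axis of macrophage and neutrophil genes (top), lymphocyte genes, cytokine and presentation genes, and epithelial defence genes (bottom) in the 9 libraries, 1 point a library. R and RR both lie right of C for Gpnmb, Trem2 and Mmp12, and RR is the lowest of the 9 for Reg3b, Reg3g, Duox2 and Saa1.

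Few secretory and crypt genes were 2-fold apart. Of 12 goblet cell genes 2 were at least 2-fold lower (5 with equal protein-coding sums) and 0 higher, with a median of -0.70. Muc2, the main mucin of intestinal mucus, was at 3452 FPKM in RR, 7863 in R and 10886 in C, while Zg16, another mucus protein, was level at 3354 against 3331. Goblet cells become denser toward the distal gut, and the part of gut position was not tested. Paneth cell genes had a median of -0.47 with 0 of 14 at least 2-fold apart, and Lyz1 was at 2048 against 1592. The alpha-defensin genes of this list are near copies, so their separate values are uncertain. All 13 crypt stem cell genes were below C, from -0.97 to -0.12, but 0 by 2-fold, or 4 with equal protein-coding sums. Lgr5, the stem cell marker, was at 4.15 in RR, 6.28 in R and 8.62 in C, and Olfm4 at 199.98, 214 and 313. Of 29 cell cycle genes 24 were below C and 1, Kif23, by at least 2-fold; Mki67 was at 14.7 against 20.8.

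Genes of the regenerating epithelium were mostly level, with 3 of 11 at least 2-fold higher and a median of -0.10. Ly6a (Sca-1), a mark of repairing crypts, was at 23.6 FPKM in RR, 11.6 in R and 10.7 in C, and the growth factor Areg at 6.87, 2.37 and 1.87. Clu, a mark of revival stem cells, was at 25.1, 55.2 and 27. Tuft cell genes had 3 of 10 at least 2-fold higher, with Dclk1 at 3.42 against 1.68. Enteroendocrine genes split by hormone, and their median of 0.12 turns negative when protein-coding sums are made equal. The proximal hormones Cck and Gip were at 26.8 and 136 FPKM against 7.1 and 38.4, with the distal Pyy and Gcg lower, as given above. The general marker Chga was at 25.2 against 18.9.

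Few stromal genes were 2-fold apart. All 12 smooth muscle genes were below C, 0 by 2-fold, with a median of -0.42, and of 28 matrix genes 3 were at least 2-fold lower and 1 higher (median -0.50). Postn, a matrix protein of fibroblasts, was at 9.23 FPKM in RR, 21.2 in R and 26.8 in C, and Col3a1 at 174, 237 and 250.2. The BMP inhibitor Grem1 was at 11, 19.9 and 24.8. Of 11 fibroblast genes 1 was at least 2-fold lower and 0 higher (median -0.12), and 3 lay above C. Endothelial genes had 0 of 12 at least 2-fold apart.

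Transcripts of other organs also differed between the libraries. Of 14 liver genes 11 were at least 2-fold lower in RR and 0 higher (median -2.33, against -0.16 in R). Albumin (Alb) was at 3.36 FPKM in RR, 85.3 in R and 167 in C, and the fibrinogen chain gene Fga at 0.188, 13.4 and 5.5. The list summed to 70.4 FPKM in RR, 339.7 in C and 47800.0 in 2K, the highest of the 9. Liver RNA in the tissue was not tested as a part of the lower values of Saa1, Nr0b2 and Apoa2, which the liver also makes; Apoa2 was at 1.13 against 20.3. Pancreatic acinar genes summed to 85 FPKM in RR and 77.8 in C, most of it Clps, and Cpa1 was at 0.062 in RR and listed at 0 in C. Stomach genes were near 0 in both libraries. The haemoglobin gene Hbb-bs was at 24.7 against 11.3.

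Most genes of oxidative phosphorylation lay above C by less than 2-fold. Of 79 nuclear genes of oxidative phosphorylation 78 were above C as deposited and 9 at least 2-fold higher (2 with equal protein-coding sums), with a median of 0.66. Sdhd, a subunit of succinate dehydrogenase, was at 209 FPKM in RR, 86.3 in R and 85.9 in C. The mRNAs encoded by mitochondria had 0 of 13 at least 2-fold apart, and ribosomal protein genes 1 of 79. Of 12 cytosolic heat shock genes 3 were at least 2-fold higher in RR and 3 in R, with 0 lower and medians of 0.79 in RR and 0.75 in R against the shared control. Hspa1b, an inducible chaperone, was at 3.31, 6.42 and 0.848 FPKM in RR, R and C, while the chaperone gene Hsp90ab1 was level between RR and C, at 281 against 269. Herpud1, which clears misfolded proteins from the endoplasmic reticulum, was at 176, 158 and 45.8.

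The 20 most raised genes also held members of no list. Leap2, an antimicrobial peptide that blocks the ghrelin receptor, was at 273 FPKM in RR, 34.2 in R and 24.7 in C. Sult6b2, a sulfotransferase, was at 15, 0.199 and 0.035, and the proton channel Otop3 at 5.67, 0.131 and 0.062. Among the 20 most lowered, Tmigd1, a membrane protein of the brush border, was at 6.17, 96.5 and 195. Suox, which detoxifies sulfite, was at 5.98, 72.2 and 87.1. In each of these 5 genes RR lay farther from C than R did, an order favoured by choosing them for their RR minus C difference.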

How the data were processed

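RNA of the mouse intestinal tract was sequenced in 9 conditions, 1 library each. Per the labels' protocols, ribosomal RNA was depleted and stranded libraries were made from total RNA. The submitters' processing notes name HISAT2 (version not given in the sources used here), Cuffdiff 2.2.1 and GRCm38. The authors deposited FPKM for 55468 genes, per the file headers; counts were not used here, so no count model was fitted. Gene types and coordinates came from GENCODE M21, in which 241 genes were not found.

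Genes with at least 1 FPKM in RR or C were compared as log2(FPKM + 0.5), with no test and no p. Depth was estimated from the steps between low FPKM values in genes with 1 transcript of 1000 to 3000 bases; it rests on annotated lengths, so no counting interval is given. Of 65 gene lists, 59 were written by hand (873 of 874 symbols found) and 6 are families by name. Members and lists were chosen with earlier results of these data known. Named genes were the 20 largest differences each way at 5 FPKM or more (leaving out predicted genes, pseudogenes, small RNAs, mitochondrial genes, histones and antigen receptor segments), from each list the first 3, the 8 most different and the 2 highest, the gut region lists in full, and the 10 highest protein-coding genes of each library. Genes with several rows were read from the row with the higher mean. Promoters were searched in the 250 bases before RefSeq starts. Alternatives were pseudocounts of 1 and 0.1, no filter, a minimum of 5 FPKM, scaling by the median of ratios, equal protein-coding sums and protein-coding genes only. The counting step was tested on simulated data. Python 3.11.15, pandas 2.3.3, numpy 2.4.6 and matplotlib 3.10.9 were used.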

Additional observations from a re-analysis of the deposited data

Results flagged for a closer look

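In 4 named genes R and RR lay on opposite sides of their shared control C, each at least 2-fold from it. The difference between R and RR was not tested, and with 1 library each it cannot be set against a spread. The inducible nitric oxide synthase Nos2 differed by -2.29 on the log2 scale between RR and C and by 2.43 between R and C. Fga differed by -3.13 in RR and 1.21 in R, and Hpx, the haem-binding protein of plasma, by -2.37 in RR and 1.85 in R, at 0.569 FPKM in RR, 19.4 in R and 5.02 in C. Both are liver genes, and the liver list summed to 291 FPKM in R, 70.4 in RR and 339.7 in C. The small nucleolar RNA Snora24 differed by 2.64 in RR, at 14.5 FPKM against 1.9, and was listed at 0 in R; an exact 0 in a table without counts can be a failed estimate.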

How the results depend on the processing

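The 1209 genes at least 2-fold higher and 1047 lower became 647 and 412 among the 13246 measured protein-coding genes, a smaller table. With a floor of 5 FPKM 452 of 10900 genes were lower, and 65.3% of the genes at least 2-fold apart were higher. With equal protein-coding sums 1600 were lower, and 35.5% of those apart were higher. All 10 other counts over all genes were within 1.5 times the main count. The colon and caecum median of 1.16, over 3 genes, reversed to -0.0027 with no filter and to -1.04 with a floor of 5 FPKM, which leaves fewer genes. In the lists, 12 further medians moved by at least 0.5. The Hox median of -1.01 became -0.22 with no filter and -1.72 with the 5 FPKM floor. That floor also moved the medians of damage-associated macrophage genes from 0.78 to 2.07, of neutrophil genes from 0.14 to 1.67, of cytokines to 2.45 (0.15 with no filter) and of vitamin A genes to 1.71, and a pseudocount of 0.1 moved the liver median from -2.33 to -3.24. The others were in pancreatic acinar, stomach, erythroid and histone genes. With the 5 FPKM floor the pancreatic acinar median changed sign, from -0.52 to 0.76, as did the histone median, from 0.34 to -0.17. Of the list counts 73 moved by over 1.5 times and 703 did not. With equal protein-coding sums the genes at least 2-fold higher fell from 12 to 7 for fat absorption, from 11 to 7 for PPAR signalling, from 9 to 2 for oxidative phosphorylation and from 4 to 1 for MHC class I, and those lower rose from 2 to 5 for goblet cells and from 0 to 4 for crypt stem cells. With the floor, T and NK cell genes higher fell from 12 to 7. The medians of 7 lists changed sign under at least 1 of the 2 scalings: enteroendocrine, immediate early, neutrophil and p53 genes, mitochondrially encoded mRNAs, ribosomal proteins and snoRNAs; 58 did not. Of the named gene values recomputed, 3227 kept their side of 2-fold, 62 fell short of it and 54 passed it. No paired analysis was possible because each group has 1 library, and leaving out a library leaves no comparison. Short genes near 1 FPKM rest on fewer fragments than the 55.2 in RR and 51.2 in C given above for 2 kb. The snoRNA values held many exact zeros.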

Other observations

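Selenop, the selenium carrier of plasma, was at 3711 FPKM in RR, 1991 in R and 2089 in C. Among 17 genes of methionine and polyamine metabolism 5 were at least 2-fold lower in RR and 0 higher; Cbs, the first enzyme of transsulfuration, was at 0.324 FPKM in RR, 2.75 in R and 5.08 in C, and Mat1a, which makes S-adenosylmethionine in the liver, at 0.108, 2.31 and 2.99. Liver genes moved in the same comparison: 11 of 14 were at least 2-fold lower in RR, with a median of -2.33. In 2K, the library with the highest liver sum, the methionine and polyamine list summed to 2668 FPKM, against 374 in RR and 345 in C, and Cbs was at 206; the part of liver RNA in the lower values was not tested. Odc1, the first enzyme of polyamine synthesis, was at 109.7, 66.6 and 58.6. Among 17 genes of tryptophan, serotonin and NAD metabolism 2 were at least 2-fold higher and 0 lower: Maoa, which breaks down serotonin, was at 226, 116 and 85.1, and the serotonin carrier Slc6a4 at 56.8, 47.7 and 27.5. The predicted gene Gm10800 was at 3517 FPKM in C, 310.4 in RR and 2.25 in R. It was at 1600 in 3KR, and the median of the DSS libraries was 3.24.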
